A study of Canis lupus familiaris with 12 samples.

Results

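The 10 genes HERPUD1, XBP1, ATF6, ERN1, DERL1, SEL1L, SYVN1, EDEM1, ERO1A and PDIA4 belong to the unfolded protein response and to the degradation of misfolded proteins of the endoplasmic reticulum (ER), and were chosen by gene symbol as 10 of the 15115 genes with a symbol of their own on the array. They are covered by 20 probe sets. Each gene is described by its brightest probe set, the one whose mean over the 12 arrays is highest, and the other 10 probe sets are given beside it. The samples were flasks of C2, a cell line from a canine mast cell tumour, grown in RPMI-1640 with serum. By the study's account, C2 carries a juxtamembrane tandem duplication of KIT, which leaves this receptor constitutively active. Masitinib mesylate, an inhibitor of the receptor tyrosine kinase KIT that also targets PDGF receptors and Src family kinases, was added at 100 nM. Total RNA was taken after 12, 24 and 72 h of masitinib and at 0 h, before the drug. There were 3 arrays per time and 12 in all. All flasks came from 1 cell line, so p-values measure the spread between these flasks. Untreated cultures of 12 h and later were not analysed here, so effects of masitinib and of culture time cannot be told apart.

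The ER folds proteins that enter the secretory pathway, and a load of unfolded protein is sensed by the membrane proteins IRE1 (encoded by ERN1), PERK (EIF2AK3) and ATF6. IRE1 splices the mRNA of XBP1 into the form that encodes an active transcription factor, PERK slows translation through phosphorylation of eIF2alpha and favours ATF4, and ATF6 is cut in the Golgi and enters the nucleus. These factors raise transcription of ER chaperones, of disulphide-forming enzymes and of the machinery of ER-associated degradation (ERAD), which recognises misfolded proteins, moves them to the cytosol and ubiquitinates them for the proteasome. Mast cells are secretory cells that fill granules with proteases made in the ER. The arrays measure mRNA levels, and neither splicing of XBP1 nor cleavage or phosphorylation of a protein was measured here.

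Masitinib-treated cells showed 5 of the 10 genes changed by 72 h, in both directions. HERPUD1 and SEL1L, both of the membrane complex of ERAD, rose 2.76-fold and 1.80-fold, whereas EDEM1, ERO1A and PDIA4 fell 2.34-fold, 2.58-fold and 1.73-fold. The sensor genes ATF6 and ERN1, the transcription factor XBP1 and the ERAD genes DERL1 and SYVN1 did not pass the test at any time. A change passed where it exceeded 1.5-fold at an adjusted p under 0.001 (limma, over all 42924 probe sets tested), and rose and fell are used of such changes. At 12 h 0 of the 10 genes rose and 0 fell, where 4.26% of all genes rose and 6.30% fell, and 4 of the 10 had an unadjusted p under 0.05, where 40.4% of all genes did. At 24 h 1 rose and 2 fell, with 8.01% and 10.0% of all genes. At 72 h 2 rose and 3 fell, with 8.73% and 11.0% of all genes. The median log2 change of the 10 genes was -0.09, 0.00 and -0.06 at 12, 24 and 72 h, and that of all genes 0.01, 0.03 and 0.02.

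**Figure D1:**
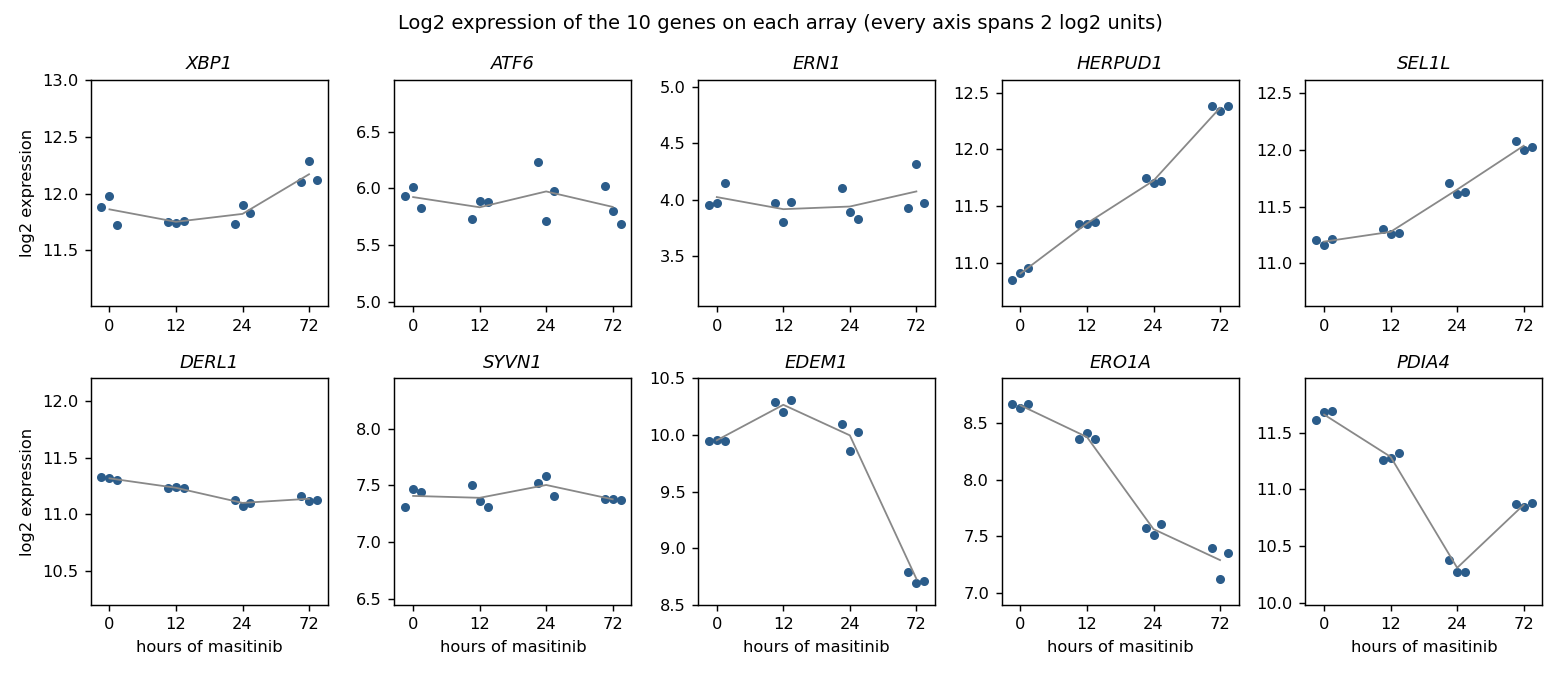
Log2 expression (y axis, each panel spanning 2 log2 units around the gene's own range) of the 10 genes on each of the 12 arrays against hours of masitinib (x axis, not to scale); points are arrays, lines join the means of 3 arrays. HERPUD1 climbs over the times to between 12.34 and 12.38 at 72 h, EDEM1 drops only between 24 and 72 h, and PDIA4 is lowest at 24 h.

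HERPUD1 encodes a ubiquitin-like membrane protein that holds the ERAD ubiquitin ligase complex together and is itself a well-known target of ATF6 and ATF4. Its log2 values were 10.85, 10.91 and 10.95 at 0 h, 11.34, 11.34 and 11.36 at 12 h, 11.75, 11.70 and 11.72 at 24 h, and 12.38, 12.34 and 12.38 at 72 h. No time overlapped with the next, and all 3 arrays of each time lay above those of the time before. The log2 change from 0 h was 0.45 at 12 h, 0.82 at 24 h (adjusted p = 4.74e-08) and 1.46 at 72 h (SE 0.0524, adjusted p = 2.21e-10). At 12 h the adjusted p was 2.57e-05, but the change of 1.36-fold was under the fold limit. The step of 0.64 between 24 and 72 h also passed (adjusted p = 3.76e-06). The second probe set of HERPUD1 gave 0.40, 0.82 and 1.60.

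SEL1L is the adaptor that couples misfolded proteins in the ER lumen to the ubiquitin ligase. Its values were 11.20, 11.16 and 11.21 at 0 h, 11.30, 11.26 and 11.27 at 12 h, 11.71, 11.61 and 11.63 at 24 h, and 12.08, 12.00 and 12.03 at 72 h. Every treated array lay above every 0 h array, though at 12 h the log2 change was 0.08 and did not pass (adjusted p = 0.321). At 24 h SEL1L had a log2 change of 0.46 (adjusted p = 1.65e-05), which is 1.37-fold, and at 72 h it rose by 0.85 (SE 0.0547, adjusted p = 4.74e-08). The other probe sets of SEL1L rose at 72 h by 0.71 and 0.67.

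The ligase itself, encoded by SYVN1 (HRD1), stood between 7.37 and 7.38 at 72 h on all 3 arrays, against 7.31 to 7.47 at 0 h. The log2 change was -0.03 at 72 h, with a 95% interval of -0.18 to 0.12, so a change as large as that of SEL1L lies outside it. Its other probe set, in the dimmest 40% of the array, gave -0.27. DERL1 encodes derlin-1, a membrane protein of the channel through which ERAD substrates leave the ER. DERL1 had 11.16, 11.12 and 11.13 at 72 h, against 11.33, 11.32 and 11.30 at 0 h. All treated arrays of all times lay below the 0 h arrays, by 0.08, 0.22 and 0.18, all under 1.5-fold. A second DERL1 probe set gave -0.30 at 72 h (adjusted p = 0.000604), also under 1.5-fold, and its 2 remaining probe sets, both among the dimmest 40%, gave 0.11 and 0.30. Of these 4 partners in the ERAD membrane complex, 2 rose at 72 h and 2 did not pass, where 8.73% of all genes rose and 11.0% fell. With each array scaled to control RNAs (the poly-A scale), HERPUD1 rose at 72 h, DERL1 fell, and SEL1L and SYVN1 did not pass. On that scale 3.58% of all genes rose and 30.7% fell.

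EDEM1 encodes a mannosidase-like protein that marks misfolded glycoproteins for degradation and is a classical target of spliced XBP1. Its values were 9.95, 9.96 and 9.95 at 0 h, 10.29, 10.20 and 10.31 at 12 h, 10.10, 9.86 and 10.03 at 24 h, and 8.79, 8.69 and 8.71 at 72 h. The 12 h arrays lay above all 0 h arrays, the 24 h arrays lay on both sides of them and the 72 h arrays lay below all others. The log2 change was 0.31 at 12 h (adjusted p = 0.00358), 0.04 at 24 h (adjusted p = 0.711) and -1.23 at 72 h (SE 0.069, adjusted p = 1.32e-08). The fall lay between the later times, with a change of -1.26 at 72 h against 24 h (adjusted p = 1.93e-07). EDEM1 has 1 probe set under its symbol, and probe sets with several symbols or none were not searched for it.

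**Figure D2:**
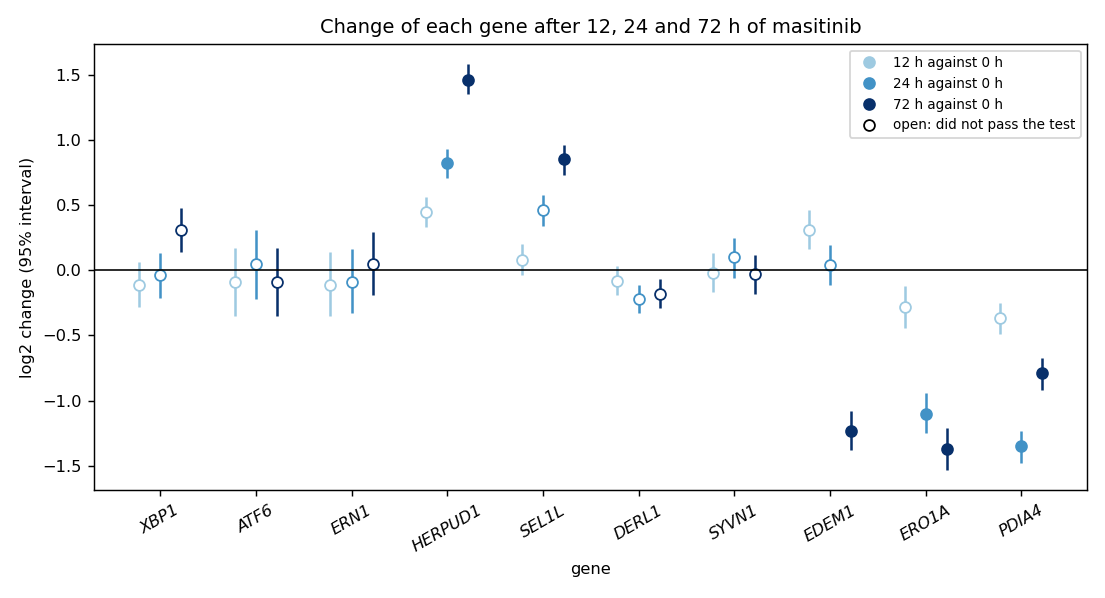
Log2 change against 0 h (y axis) of the 10 genes (x axis) after 12, 24 and 72 h of masitinib; bars are 95% intervals from limma with 3 arrays per time, filled points passed the test and open points did not. HERPUD1 and SEL1L lie above 0 and EDEM1, ERO1A and PDIA4 below 0 at 72 h, and the intervals of ATF6, ERN1 and SYVN1 include 0 at every time.

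ERO1A and PDIA4 form and rearrange disulphide bonds. ERO1A is the oxidase that recharges protein disulphide isomerases, and is also known as a gene induced by low oxygen. Its values were 8.67, 8.63 and 8.67 at 0 h, 8.36, 8.41 and 8.36 at 12 h, 7.57, 7.51 and 7.61 at 24 h, and 7.40, 7.12 and 7.35 at 72 h. Each time lay below the one before with no overlap. ERO1A had a log2 change of -0.28 at 12 h (adjusted p = 0.00974) and fell by 1.10 at 24 h (adjusted p = 6.59e-08) and by 1.37 at 72 h (SE 0.0725, adjusted p = 7.52e-09). Most of the fall lay between 12 and 24 h (-0.81, adjusted p = 5.35e-06). ERO1A has 1 probe set.

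PDIA4 (ERp72) is a disulphide isomerase of the ER lumen and a target of ATF6. Its values were 11.61, 11.68 and 11.69 at 0 h, 11.26, 11.28 and 11.32 at 12 h, 10.38, 10.27 and 10.27 at 24 h, and 10.87, 10.84 and 10.88 at 72 h. All treated arrays lay below all 0 h arrays, and the 24 h arrays lay lowest. PDIA4 fell by 1.35 at 24 h (SE 0.056, adjusted p = 1e-09), a 2.56-fold fall, and by 0.79 at 72 h (adjusted p = 1.06e-07). Against 12 h it fell by 0.98 at 24 h (adjusted p = 9.04e-08). At 72 h against 24 h it had a change of 0.56 (adjusted p = 1.9e-05), 1.47-fold and so just under the fold limit. The other probe sets of PDIA4 fell by 1.21 and 0.97 at 24 h and by 0.84 and 0.64 at 72 h. At 24 h against 12 h 2 of the 10 genes passed, ERO1A and PDIA4, where 4.51% of all genes did, and at 72 h against 24 h 2 passed, HERPUD1 and EDEM1, where 3.78% did.

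XBP1 had 12.10, 12.29 and 12.12 at 72 h, against 11.88, 11.98 and 11.72 at 0 h. The 72 h arrays lay above all 0 h arrays, whereas the 12 h and 24 h arrays overlapped with those of 0 h. The log2 change of 0.31 at 72 h (95% interval 0.14 to 0.48, adjusted p = 0.0062) did not pass, and the second probe set gave 0.25. On the poly-A scale (each array scaled to control RNAs) the change at 72 h was -0.16 (adjusted p = 0.252). ATF6 stood between 5.69 and 6.02 at 72 h, against 5.83 to 6.01 at 0 h, a change of -0.09 with an interval of -0.35 to 0.17. ERN1 stood between 3.93 and 4.32 at 72 h, against 3.95 to 4.15 at 0 h, a change of 0.05 with an interval of -0.19 to 0.29. The ERN1 probe set is among the dimmest 40% of probe sets, so a change in a transcript near background may not show. Activity of these sensors is set on the protein and was not measured here.

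The deposited values are quantile-normalised, which removes a change shared by most transcripts. The poly-A control RNAs (36 probe sets), bacterial transcripts measured beside the cell's own, were higher by 0.293, 0.603 and 0.471 log2 units at 12, 24 and 72 h. At which step they were added is not given in the sources used here. With each array shifted to equal poly-A signal, the median of all probe sets lay at -0.28, -0.57 and -0.44 and that of the 10 genes at -0.38, -0.60 and -0.53, so directions hold relative to the other genes of the same array. On that scale, of all genes called at 12, 24 and 72 h, 88.6%, 95.8% and 89.6% fell, where the deposited values gave 59.7%, 55.5% and 55.8%. As shares of all genes, 1.84% rose and 14.3% fell at 12 h, 2.08% and 46.8% at 24 h, and 3.58% and 30.7% at 72 h on the poly-A scale. HERPUD1 then had a change of 0.22 at 24 h (adjusted p = 0.111) and still rose at 72 h, by 0.99 (adjusted p = 7.57e-08), whereas SEL1L had 0.37 at 72 h (adjusted p = 0.013) and no longer passed. The falls of EDEM1, ERO1A and PDIA4 described above passed on both scales. On the poly-A scale only, PDIA4 also fell at 12 h (-0.66, adjusted p = 0.00014), XBP1, ERN1 and DERL1 at 24 h, and DERL1 at 72 h. Whether total mRNA per cell changed was not tested.

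The rest of the pathway was described with 115 further genes in 7 groups, of which 108 were measured. Of these, 4 rose and 5 fell at 12 h, 7 rose and 12 fell at 24 h, and 10 rose and 11 fell at 72 h, and their median log2 change was -0.05, -0.07 and 0.00. The 10 and 11 of 108 genes at 72 h lie near the 8.73% and 11.0% of all genes. Of all genes, 4.26% rose and 6.30% fell at 12 h, and 8.01% and 10.0% at 24 h. On the poly-A scale 3 pathway genes rose and 20 fell at 12 h, 3 rose and 63 fell at 24 h, and 5 rose and 43 fell at 72 h. The shares of all genes on that scale were 1.84% and 14.3% at 12 h, 2.08% and 46.8% at 24 h, and 3.58% and 30.7% at 72 h.

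**Figure D3:**
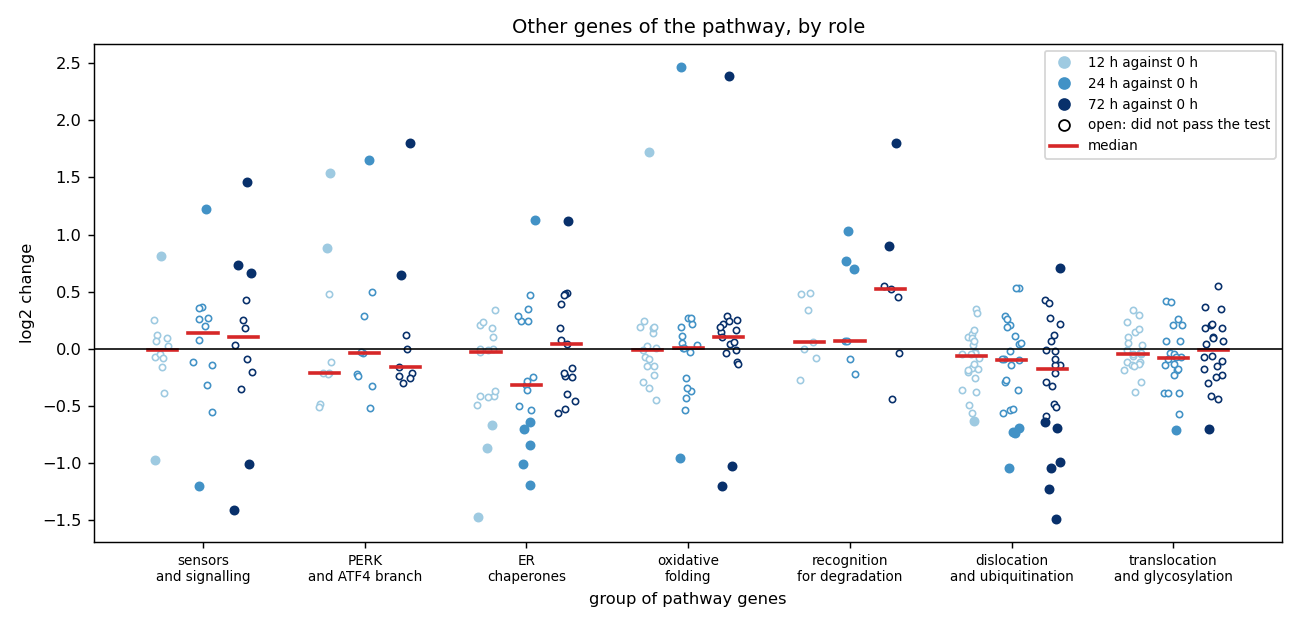
Log2 change against 0 h (y axis) of each of the 108 measured genes in 7 groups by role (x axis), after 12, 24 and 72 h of masitinib; each point is a gene, filled where it passed the test, and red bars are medians over the genes of a group. The ER chaperones have 5 of their 6 filled points below 0 at 24 h and 1 above 0 at 72 h.

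Of the 17 ER chaperones measured, 3 fell at 12 h, 5 fell at 24 h and 0 fell at 72 h, where 6.30%, 10.0% and 11.0% of all genes fell. The poly-A scale gave 8, 11 and 8, with 14.3%, 46.8% and 30.7% of all genes. Of the 17, 11 had a change below 0 at 12 h, 11 at 24 h and 8 at 72 h. Those above 0 were 6, 6 and 9, where 52.0%, 55.7% and 53.9% of all genes lay above 0. The poly-A scale gave 1, 1 and 5 above 0, with 13.6%, 8.42% and 12.0% of all genes. HSPA5 encodes BiP, the main Hsp70 of the ER and the best known target of ATF6. It had 12.80, 12.81 and 12.80 at 0 h, 11.93 on all 3 arrays at 12 h, 12.33, 12.28 and 12.30 at 24 h, and 12.94, 12.86 and 12.84 at 72 h. It was thus lowest at 12 h and its 72 h arrays lay just above those of 0 h. HSPA5 fell by 0.87 at 12 h (SE 0.0527, adjusted p = 8.18e-08) and had -0.50 at 24 h, 1.42-fold, and 0.08 at 72 h (95% interval -0.04 to 0.19). The change of 0.58 between 24 and 72 h (adjusted p = 9.14e-06) was 1.49-fold. The second HSPA5 probe set gave -1.13, -0.67 and 0.06, and by it the change passed at 24 h as well. On the poly-A scale HSPA5 had -0.39 at 72 h (adjusted p = 0.00876) and rose by 0.71 at 72 h against 24 h (adjusted p = 0.000245).

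HSP90B1 (GRP94, the Hsp90 of the ER) had 13.28, 13.25 and 13.21 at 0 h, 12.81, 12.84 and 12.87 at 12 h, 12.24, 12.27 and 12.22 at 24 h, and 12.87, 12.85 and 12.83 at 72 h. All treated arrays lay below the 0 h arrays, lowest at 24 h, as for PDIA4. HSP90B1 fell by 1.01 at 24 h (SE 0.0523, adjusted p = 7.35e-09) and rose by 0.61 at 72 h against 24 h (adjusted p = 6.09e-06). With poly-A scaling HSP90B1 also fell at 12 h (-0.70) and 72 h (-0.87). MANF and SDF2L1, chosen after their values were seen, are ER proteins known to bind or assist BiP, and also fell early. MANF fell by 1.47 at 12 h and 1.19 at 24 h and rose by 0.73 at 72 h against 24 h (adjusted p = 7.64e-06). SDF2L1 fell by 0.67 at 12 h and 0.84 at 24 h and rose by 0.67 at 72 h against 24 h (adjusted p = 2.85e-06). Other genes of the group did not go this way. At 12 and 24 h SIL1 had 0.23 and 0.35, DNAJC10 0.34 and 0.47, and SDF2 0.18 and 0.29 on the deposited scale. None of these passed, and they too were chosen after their values were seen. Of the 17 chaperone genes, 6 lay above 0 and 11 below at each of these times. HYOU1, an Hsp70 relative of the ER, and CALU, a calcium-binding protein, both also chosen after their values were seen, made up the 5 falls at 24 h with -0.70 and -0.64. Of the 6 probe sets of CALU 4 fell at 24 h, while the others had -0.10 (adjusted p = 0.413) and -0.50 (adjusted p = 0.00446). At 72 h against 24 h, 15 of the 17 chaperone genes had a change above 0, as did 49.7% of all genes, and 3 rose, where 1.96% of all genes did. The poly-A scale gave 16 above 0 and 5 that rose, with 76.6% and 2.84% of all genes.

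The 1 chaperone gene that rose against 0 h was DNAJB9 (ERdj4), a BiP co-chaperone that is a target of spliced XBP1 and represses IRE1. It had 10.48, 10.18 and 10.55 at 72 h, against 9.21, 9.31 and 9.33 at 0 h, with no overlap. DNAJB9 rose by 1.13 at 24 h (adjusted p = 4.65e-07) and by 1.12 at 72 h (adjusted p = 4.4e-07), and its other probe set rose at both times. DNAJB9 and EDEM1, both known targets of XBP1, thus ended on opposite sides of their 0 h level.

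**Figure D4:**
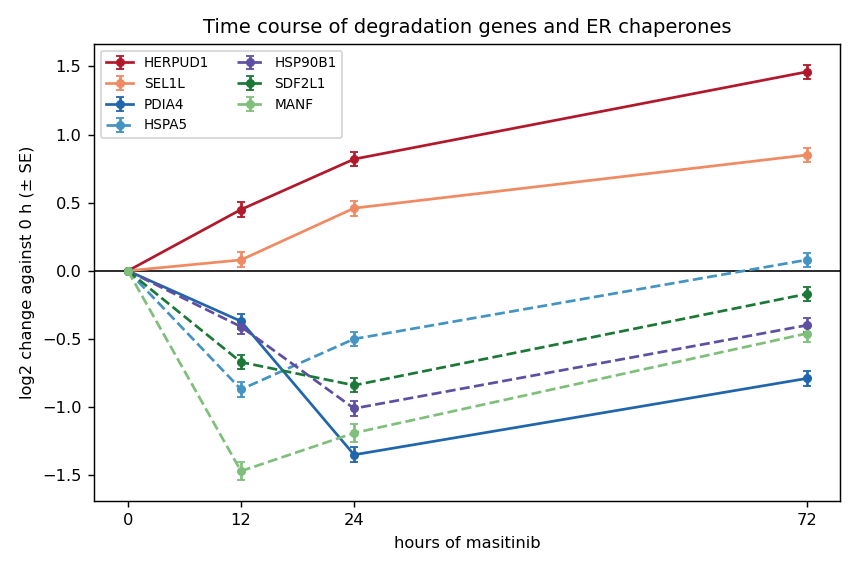
Log2 change against 0 h (y axis, ± SE) of the degradation genes HERPUD1 and SEL1L, the disulphide isomerase PDIA4 and the ER chaperones HSPA5, HSP90B1, SDF2L1 and MANF against hours of masitinib (x axis, to scale). HERPUD1 and SEL1L climb to 1.46 and 0.85 at 72 h. PDIA4 and the chaperones shown lie between -0.37 and -1.47 at 12 h and between -0.79 and 0.08 at 72 h. SDF2L1 and MANF were chosen after their values were seen. Of all 17 chaperone genes measured, 6 had a change above 0 at 12 h and 11 below, where 52.0% of all genes lay above 0. DNAJB9, a chaperone that rose, and EDEM1, a degradation gene that fell, are not shown.

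Oxidative folding had 1 gene that rose and 2 that fell at 72 h among 17 measured, with 8.73% and 11.0% of all genes. On the poly-A scale 1 rose and 3 fell at 72 h, and 1 rose and 9 fell at 24 h against 1 and 1 on the deposited scale. Of all genes on the poly-A scale, 3.58% rose and 30.7% fell at 72 h, and 2.08% and 46.8% at 24 h. PDIA5, a disulphide isomerase, had 10.51, 10.34 and 10.40 at 72 h, against 8.0 to 8.06 at 0 h. It rose by 1.72, 2.47 and 2.39 at 12, 24 and 72 h (SE 0.0727, adjusted p = 5.62e-11 at 72 h), the largest change of the pathway genes measured at 24 and 72 h, and all 3 of its probe sets rose at 72 h. PDIA4 and PDIA5 thus changed in opposite directions, and PDIA3, a further isomerase that works with the lectin chaperones, had 0.19, -0.03 and 0.22 with no call, while on the poly-A scale it fell by 0.63 at 24 h (adjusted p = 0.000124). TMX1 and TMX4, thioredoxin-related proteins of the ER membrane, fell by 1.03 (adjusted p = 2.33e-08) and 1.20 (adjusted p = 2.55e-06) at 72 h.

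Recognition of misfolded glycoproteins had 2 of 7 genes that rose and 0 that fell at 72 h, with 8.73% and 11.0% of all genes. The poly-A scale gave 1 and 1 at 72 h, with 3.58% and 30.7% of all genes. At 24 h it gave 0 that rose and 2 that fell, with 2.08% and 46.8% of all genes. EDEM2, which starts the trimming of mannose, had 11.41, 11.34 and 11.43 at 72 h, against 9.52, 9.51 and 9.74 at 0 h. EDEM2 rose by 1.03 at 24 h and 1.80 at 72 h (SE 0.0851, adjusted p = 2.6e-09). Of its other probe sets 1 rose by 1.24 at 72 h, whereas the other had -0.08 (adjusted p = 0.393). EDEM2 and its relative EDEM1 therefore changed in opposite directions at 72 h. ERLEC1, a lectin that binds trimmed glycans, rose by 0.77 at 24 h and 0.90 at 72 h (adjusted p = 5.03e-08). OS9, the other lectin of that step and chosen after its values were seen, rose by 0.70 at 24 h and had 0.55 at 72 h, 1 of the 3 rises of the group at 24 h. None of the other 4 probe sets of OS9 passed at 24 h, and on the poly-A scale its change was 0.10 (adjusted p = 0.457).

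Dislocation and ubiquitination had 1 gene that rose and 6 that fell at 72 h among 24 measured, with 8.73% and 11.0% of all genes. The poly-A scale gave 0 and 14, with 3.58% and 30.7% of all genes. UBE2J1, the membrane-bound ubiquitin-conjugating enzyme of ERAD, had 5.75, 5.59 and 5.75 at 72 h, against 7.18, 7.19 and 7.20 at 0 h. UBE2J1 fell by 1.04 at 24 h and 1.49 at 72 h (SE 0.066, adjusted p = 1.49e-09), and all 3 of its probe sets fell at 72 h. UBE2G2, another conjugating enzyme of ERAD, fell by 1.04 (adjusted p = 6.27e-08). UBQLN1, a shuttle of ubiquitinated proteins to the proteasome, fell by 0.69 at 24 h and 0.99 at 72 h (adjusted p = 1.99e-05). The 24 h call of UBQLN1 was lost when 0 h array 1 or 2 or any 24 h array was left out, with changes of -0.61 to -0.73. The other probe set of UBQLN1 fell at 24 and 72 h with all arrays in the fit. ATXN3, a deubiquitinase, fell by 1.23 (adjusted p = 2.04e-06) by its brightest probe set, while its other one had 0.18. Outside the naming rule, UBE2J2 and YOD1 fell by 0.69 and 0.64 at 72 h, and HERPUD2, the relative of HERPUD1, rose by 0.71 (adjusted p = 2.47e-07). HERPUD2 had 0.24 on the poly-A scale (adjusted p = 0.0915) and did not pass.

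Among the 12 genes of sensors and signalling, 3 rose and 2 fell at 72 h, with 8.73% and 11.0% of all genes. The poly-A scale gave 1 and 4, with 3.58% and 30.7% of all genes. EIF2S1, which encodes eIF2alpha, had 10.20, 10.41 and 10.15 at 72 h, against 11.73, 11.73 and 11.53 at 0 h. EIF2S1 fell by 0.97, 1.20 and 1.41 at 12, 24 and 72 h (SE 0.078, adjusted p = 1.13e-08 at 72 h), with 1 probe set. PPP1R15A (GADD34), the phosphatase subunit that removes the phosphate from eIF2alpha, rose by 0.81, 1.22 and 1.46 by its brightest probe set (adjusted p = 9.27e-08 at 72 h). None of the other 4 probe sets of PPP1R15A passed, with 0.40, 0.03, 0.55 and 0.34 at 72 h. MBTPS2, the protease that makes the second cut in ATF6, fell by 1.01 (adjusted p = 4.31e-07). MAP3K5 (ASK1), a kinase downstream of IRE1, rose by 0.73 (adjusted p = 8.7e-05), a call that was lost with only the 0 h and 72 h arrays in the fit (adjusted p = 0.00112), and its other probe set had 0.22. EIF2AK3, encoding PERK and chosen after its values were seen, rose by 0.66 at 72 h, a call lost on the poly-A scale (0.19, adjusted p = 0.219).

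In the branch of PERK and ATF4, 2 of 9 measured genes rose and 0 fell at 72 h, with 8.73% and 11.0% of all genes. The poly-A scale gave 1 that rose and 5 that fell, with 3.58% and 30.7% of all genes. NUPR1, a small stress-induced nuclear protein, had 12.36, 12.43 and 12.46 at 72 h, against 10.60, 10.62 and 10.63 at 0 h. It rose by 1.54, 1.65 and 1.80 at 12, 24 and 72 h (SE 0.0535, adjusted p = 4.86e-11 at 72 h), with all treated arrays above those of 0 h. DDIT3, encoding CHOP, the transcription factor of the late phase of the response, had 0.48 and 0.50 at 12 and 24 h and rose by 0.65 at 72 h (adjusted p = 1.61e-05). Without 0 h array 1 the rise of DDIT3 was 0.56 and under 1.5-fold. The mRNA of ATF4 itself, which is regulated mainly at translation, had -0.48, -0.52 and -0.21, all under 1.5-fold. ATF4 fell at all 3 times on the poly-A scale, by 0.78, 1.12 and 0.68 (adjusted p = 1.2e-05, 4.87e-09 and 3.41e-05). DDIT4, an inhibitor of mTORC1 chosen after its values were seen, rose by 0.88 at 12 h and fell by 0.60 at 24 h against 12 h. On the poly-A scale the rises of MAP3K5 and DDIT3 at 72 h (0.26 and 0.17), of ERLEC1 at 24 and 72 h, of EDEM2 and DNAJB9 at 24 h and of PPP1R15A at 12 h no longer passed.

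Translocation and glycosylation, the entry of proteins into the ER and the transfer of their sugar chains, had 22 measured genes, of which 0 rose and 1 fell at 72 h, with 8.73% and 11.0% of all genes. The poly-A scale gave 15 that fell at 24 h and 8 at 72 h, with 46.8% and 30.7% of all genes. The gene that fell at 72 h on the deposited scale was SSR1, a subunit of the translocon-associated complex, by 0.70 (adjusted p = 0.00021). Its call was lost without 0 h array 1 (-0.575) and without 72 h array 3 (adjusted p = 0.00101). The other probe sets of SSR1 had -0.89 and -0.68 at 72 h, and both passed. STT3B, a catalytic subunit of the oligosaccharyltransferase chosen after its values were seen, fell by 0.71 at 24 h.

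The genes outside the pathway lists whose pattern was most like that of HERPUD1 over the 12 arrays were GSTA4, ELSPBP1 and IGFLR1, with Pearson r of 0.9985, 0.9976 and 0.9968 among 14997 genes searched. For ERO1A they were ENPEP, TK1 and CENPP, with 0.9946, 0.9943 and 0.9932. These arrays share their normalisation and a course over time, and 752 genes had r above 0.9 with HERPUD1 and 789 with ERO1A.

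Of 8 mast cell markers 7 were measured, and 6 of them, KIT, CPA3, FCER1A, MS4A2, HDC and CMA1, lay above percentile 99 of all probe sets. The mean of the 7 was 13.27 to 13.47 at 72 h, against 12.51 to 12.60 at 0 h. At 72 h 3 rose, FCER1A, GATA2 and CMA1, with 8.73% of all genes. At 24 h 4 rose, the same and HDC, with 8.01% of all genes. KIT, also among the 7, had 1.12, 1.31 and 0.90 at 12, 24 and 72 h. Its adjusted p of 0.00911, 0.00232 and 0.0229 did not pass. The 15 measured markers of T cells, B cells, macrophages, epithelium and fibroblasts averaged 5.37 to 5.42 at 72 h, against 5.55 to 5.60 at 0 h, and of these CD79A and CDH1 rose and CD3D, EPCAM and KRT18 fell. EPCAM and KRT18 rose at 12 h. The difference of 3' and 5' probe sets of GAPDH, a measure of RNA integrity, averaged 0.626, 0.457, 0.546 and 0.474 at 0, 12, 24 and 72 h. That of actin was larger and averaged 2.722, 2.398, 2.555 and 2.7. The part of these shifts in the changes described was not tested, and in RNA from whole cultures fewer cells with a transcript and less of it per cell cannot be told apart.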

How the data were processed

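The authors processed the scanned Affymetrix Canine Genome 2.0 arrays in Partek by a gcRMA workflow with RMA background correction, quantile normalisation and median polish, and deposited 1 log2 expression value for each probe set on each array. The number of arrays limits the precision. Array medians were 5.89 to 5.95 and the median residual SD was 0.112.

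Of 43035 probe sets, 111 controls were set aside and 42924 tested. Genes were named by the platform annotation, with 27680 symbols updated through Entrez identifiers. Of the probe sets, 29254 had 1 symbol, 439 had several and 13231 had none. limma 3.58.1 in R 4.3.3 was fitted to all 12 arrays with a mean per time point and no covariate, p-values were adjusted by Benjamini-Hochberg, and the script was tested on simulated data. The thresholds are those of the study's methods.

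The 10 genes, the pathway lists and the markers were chosen with earlier results of these data known. Besides the 10 genes, the naming rule took up to 4 genes per pathway group with the largest passed change at 72 h, HSPA5, HSP90B1, PDIA3, ATF4 and DDIT3, and the 3 genes most correlated with HERPUD1 and with ERO1A. The 36 poly-A probe sets were chosen after the data had been seen. Replicate numbers were not taken to pair the arrays. Same-numbered arrays correlated at -0.329 to 0.411 in their deviations from the time means, and over 0.1 in 5 of 18 pairs. Differently numbered arrays correlated at -0.455 to 0.461, and over 0.1 in 12 of 36 pairs. These ranges show no sign of pairing but cannot exclude it. Alternatives covered the test, thresholds, scaling, dim probe sets, choice of probe set, replicate block and each array left out.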

Additional observations from a re-analysis of the deposited data

Results flagged for a closer look

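Of the 10 genes, 4 differed between treated times by a change that passed the test of that difference. At 24 h against 12 h ERO1A had a log2 change of -0.81 and PDIA4 of -0.98. At 72 h against 24 h HERPUD1 had 0.64 and EDEM1 -1.26, and these values are those described above.

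The poly-A control RNAs, which enter none of the comparisons of genes, lay higher on every treated array than on every 0 h array, by 0.293, 0.603 and 0.471 log2 units at 12, 24 and 72 h. Their part in the changes of the 10 genes is shown only by the alternative scaling.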

How the results depend on the processing

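With each array scaled to the poly-A controls, the count of the 10 genes that passed was 1 at 12 h (0 with the deposited scaling) and 5 at 24 h (3). On that scale 20, 63 and 43 pathway genes fell at 12, 24 and 72 h (5, 12 and 11), and 3 and 5 rose at 24 and 72 h (7 and 10). Of all genes on that scale, 14.3%, 46.8% and 30.7% fell at 12, 24 and 72 h, and 2.08% and 3.58% rose at 24 and 72 h. With a fold limit of 2, 3 of the 10 genes passed at 72 h, 0 at 24 h against 12 h and 1 at 72 h against 24 h, 1, 4 and 7 pathway genes fell at 12, 24 and 72 h, and 2 rose at 12 h and 5 at 72 h. With the probe set of largest change for each gene, 21 pathway genes fell at 24 h. These counts move by construction of the fold limit and the choice of probe set. The cause of the poly-A shift was not tested. With the replicate block, 0, 3 and 5 of the 10 genes passed at 12, 24 and 72 h, 2 at 24 h against 12 h and 2 at 72 h against 24 h, as without it. No call of a named gene against 0 h changed. Cyclic loess and an adjusted p under 0.05 changed no call of a named gene against 0 h. Calls of single genes between treated times were not followed under the alternatives. Leaving out each array in turn kept every call of the 10 genes against 0 h, and of the 1116 single results so obtained 8 lost and 2 gained a call. Among the 10 genes and the pathway genes of the naming rule, no result against 0 h changed direction under these alternatives where it passed in either setting. GPX7 and PRDX4, outside that rule, each had 0.01 at 24 h and fell on the poly-A scale, each with -0.59. ERN1 has no value without the dimmest 40% of probe sets. Its probe set lies in that dim part, which limits what can be seen of it. The unmoderated model lost the calls of UBQLN1 at 24 h and SSR1 at 72 h.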
